A study of Mus musculus with 38 samples.

Results

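The widest domains of H3K9me3 were taken from the IκBα-WT (WT) lists of a ChIP-seq study of mouse embryonic stem cells (mESCs), and were followed into IκBα-KO (KO) cells. A base belonged to the WT consensus when at least 2 of the 3 WT lists of called regions covered it, and consensus bases that touched were joined into pieces. On chromosomes 1 to 19 this gave 43372 pieces, and the 1081 pieces of 15 kb or more (2.49%) are the domains described here. They were selected on the WT H3K9me3 calls, so their width, their cover in the WT lists and their WT reads are given as a description, with no test.

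The cells were of the ES-E14TG2a line, an established line from mouse blastocysts, kept in serum with leukaemia inhibitory factor (LIF) and taken at 0 h, before any differentiation. Each genotype was represented by 3 independent clones. The KO clones had been edited by CRISPR/Cas9 at exon 1 of Nfkbia, which encodes IκBα, the inhibitor that holds NF-κB in the cytoplasm, and were selected for absence of the protein, while the WT clones had received scrambled guide RNAs. H3K4me3, H3K27me3, H3K9me3, H3K27ac and H3K4me1 each had 3 WT and 3 KO libraries, and 1 input library per genotype had served for all 3 H3K9me3 libraries of that genotype. Every line was grown from 1 sorted cell, so a difference between genotypes is also a difference between sets of clones.

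H3K9me3 marks constitutive heterochromatin. It is written by SETDB1 and the SUV39H enzymes and is bound by HP1 proteins, and in mESCs it covers retrotransposons, clusters of KRAB zinc-finger genes and the DNA-methylated allele of imprinting control regions. At retrotransposons and imprinted regions, zinc-finger proteins bring SETDB1 to DNA through the co-repressor TRIM28, and at imprinted regions ZFP57 does so at the letters TGCCGC when they are methylated.

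Sequences of 4 domains are shown as examples, from domains at imprinted genes, the widest domain and the widest with a zinc-finger gene. The first pair are RefSeq promoters (GRCm38.p6, 250 bases before to 50 after the start site) that lay inside a domain, of Mest at chr6:30737800-30738099 on the plus strand and of Nap1l5 at chr6:58907077-58907376 on the minus strand, with TGCCGC or its reverse complement GCGGCA in capitals. The second pair are the middle 300 bases (plus strand, GRCm38) of the widest domain, at chr13:12868051-12868350, and of the widest domain with a zinc-finger gene, at chr4:147474651-147474950, with CG dinucleotides in capitals.
Mest promoter: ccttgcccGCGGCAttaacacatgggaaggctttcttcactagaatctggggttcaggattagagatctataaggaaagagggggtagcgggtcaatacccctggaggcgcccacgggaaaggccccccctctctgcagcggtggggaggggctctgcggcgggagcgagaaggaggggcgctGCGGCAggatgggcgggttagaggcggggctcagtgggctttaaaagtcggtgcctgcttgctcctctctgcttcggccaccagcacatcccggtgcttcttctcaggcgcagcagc
Nap1l5 promoter: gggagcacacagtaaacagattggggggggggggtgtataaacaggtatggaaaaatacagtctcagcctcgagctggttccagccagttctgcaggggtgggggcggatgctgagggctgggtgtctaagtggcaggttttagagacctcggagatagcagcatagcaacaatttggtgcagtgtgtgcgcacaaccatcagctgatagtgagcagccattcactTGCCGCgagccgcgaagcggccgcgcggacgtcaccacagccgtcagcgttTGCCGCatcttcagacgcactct
widest domain: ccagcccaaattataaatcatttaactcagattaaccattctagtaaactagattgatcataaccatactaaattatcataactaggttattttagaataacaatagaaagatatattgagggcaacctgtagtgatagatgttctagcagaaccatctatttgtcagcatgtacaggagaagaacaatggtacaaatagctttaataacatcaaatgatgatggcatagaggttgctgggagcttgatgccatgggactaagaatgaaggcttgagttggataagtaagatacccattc
widest zinc-finger domain: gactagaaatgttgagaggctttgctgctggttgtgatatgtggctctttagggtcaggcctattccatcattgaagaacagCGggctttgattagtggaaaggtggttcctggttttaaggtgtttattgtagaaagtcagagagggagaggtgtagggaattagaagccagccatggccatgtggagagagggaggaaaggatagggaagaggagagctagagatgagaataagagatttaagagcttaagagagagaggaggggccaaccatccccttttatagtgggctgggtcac

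Each of the promoters shown held 17 CG dinucleotides and 2 matches to TGCCGC on either strand. The middle of the widest domain held 0 CG dinucleotides and that of the zinc-finger domain 1. These middles were taken by position and not as promoters, so the counts do not compare imprinted with other domains. The median was 7 CG dinucleotides over RefSeq promoters on chromosomes 1 to 19. It was 3 in promoters inside a domain and 13 in those of imprinted genes inside a domain. Of 31396 RefSeq promoters on chromosomes 1 to 19, 3643 (11.6%) held TGCCGC on either strand. The share was 10 of 164 (6.10%) for promoters wholly inside a domain, which belonged to 140 genes, and 4 of 12 (33.3%) for those of imprinted genes inside a domain, among them 2 overlapping Mest promoters. The promoters shown had the most matches among these 12, so they do not stand for all of them. Those of Grb10, Peg3 and Airn, for example, held 0 matches, and that of Airn 3 CG dinucleotides. A match is a description of the letters and not a measured binding site.

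The domains spanned 24.6 Mb, which was 13.5% of the 182.3 Mb of the consensus and 0.998% of chromosomes 1 to 19. They were 15.0 to 149.2 kb wide with a median of 19.2 kb, against a median of 3.0 kb for the narrower pieces, and 497 reached 20 kb, 142 reached 30 kb, 35 reached 50 kb and 4 reached 100 kb. All 3 WT lists covered 91.1% of their bases. Calls run in steps of 200 bp, and at the limit 39 pieces of 15000 bp were inside and 33 of 14800 bp outside. In chromosome order the first inside began at 16861601, 30911201 and 39078601 on chromosome 1 and were covered by 77.3 to 98.7% in the KO lists. The first outside lay at Prex2 and Casp8 on chromosome 1 and at 26605001 on chromosome 10 and were covered by 85.1 to 93.2%.

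The domains were spread over every autosome, and unevenly. Chromosome 7 held the most, 103 domains over 1.75% of its length, followed by chromosome 17 (1.5%), chromosome 13 (1.47%) and chromosome 12 (1.37%). Chromosome 14 had the smallest share (29 domains, 0.425%) and chromosome 2 the next (43 domains, 0.472%). Of 2473 windows of 1 Mb, 582 held a domain, and the 10 densest windows held 11.5% of all domain bases. These included 20000001 to 21000000 on chromosome 12 (7 domains, 447.2 kb), 147000001 to 148000000 on chromosome 4 (9 domains, 313.4 kb) and 62000001 to 63000000 on chromosome 13 (10 domains, 296.4 kb).

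**Figure D1:**
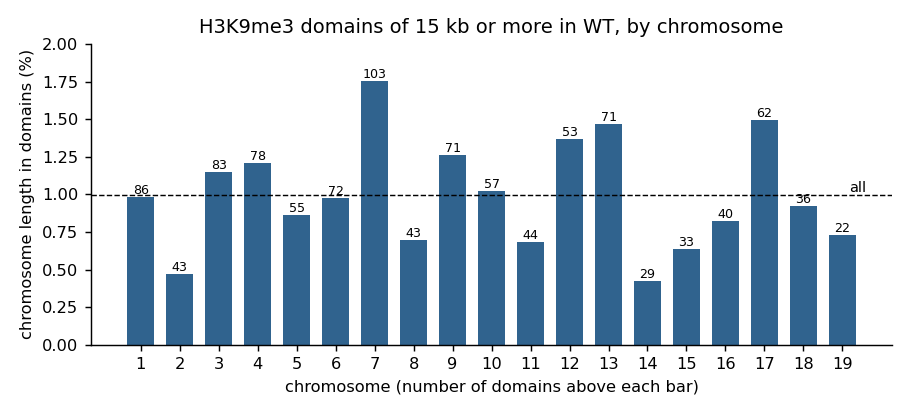
Share of each autosome's length (%) that lay in H3K9me3 domains of 15 kb or more in the WT, with the number of domains above each bar and the share over all autosomes as a dashed line. Chromosome 7 stood highest at 1.75% and chromosome 14 lowest at 0.425%.

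Most domains lay outside protein-coding genes. Of the 1081, 789 touched no protein-coding gene of GENCODE M21 and 495 touched no annotated gene of any kind, while 292 (27%) touched a protein-coding gene, 204 a coding exon and 88 a gene's 5′ end, and 43 were wholly intronic. Protein-coding genes took up 17.0% of domain bases, against 25.5% in the narrower pieces and 40.3% over the autosomes. The soft-masked share of the sequence, which is the share the genome assembly marks as repeats, was 52.8% in the domains, 50.0% in the narrower pieces and 33.5% over the autosomes. GC content was alike, at 41.7%, 42.6% and 41.9%.

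Repeated sequence bears on how reads can be placed, and it was measured in the domains themselves. Of their words of 50 bases, the read length, 14.1% also occurred in another domain, and in 14 domains the share was above 50%. In 34 domains the WT input held more than 3 times the median of 20.5 input reads per kb, and their median log2 ChIP over input in the WT was 0.98, against 2.16 in the others. The part of copy number and read placement in these 34 domains was not tested.

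Of 20807 protein-coding genes on the autosomes, 325 (1.56%) touched a domain, and the shares differed between gene families. Zinc-finger genes, many of which encode KRAB repressors of retrotransposons, had 42 of 419 (10.0%) in 46 domains, of which 14 were on chromosome 4, 10 on chromosome 7 and 6 on chromosome 5. Clustered protocadherins, the neuronal adhesion proteins, had 9 of 57, all of the Pcdha group and all in 2 domains. Vomeronasal receptors had 11 of 327, olfactory receptors 13 of 1128, cytochrome P450 genes 5 of 81, serine protease inhibitors 2 of 49 and the prolactin family 1 of 26. No gene touched a domain among 15 of the Pramel family, 64 defensins, 67 histone genes, 11 Skint genes, 19 germline genes and 22 genes of the H3K9 methylation machinery. Imprinted genes had 14 of 47 that encode proteins (29.8%) and 5 of 9 that do not, Airn, Kcnq1ot1, Meg3, Nespas and Peg13, in 12 domains altogether. These lists were drawn up by gene symbol and with earlier results of these data known, and the shares are counts without a test. Zinc-finger genes whose symbols are not of the Zfp or a like kind are therefore not counted.

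The 12 widest domains are described by position and by the genes they touched. The widest ran from 12793601 to 12942800 on chromosome 13 (149.2 kb) and touched Prl2c3, which encodes proliferin, a hormone of the prolactin family. The next 3 lay within 2 Mb of each other on chromosome 12, at 20190201 (133.4 kb, noncoding Gm49692), 20789401 (117.6 kb, noncoding 1700030C10Rik) and 19067601 (114.6 kb, no gene). Others touched D10Wsu102e, Scgb2b21, which encodes a secretoglobin, the zinc-finger genes Zfp982, Zfp992 and Zfp981 on chromosome 4, the noncoding Platr16, 2210408I21Rik, and the 3′ part of the Ugt1a cluster with Mroh2a, Hjurp and Trpm8. A domain on chromosome 6 from 37724401 (82.0 kb) touched no protein-coding gene, and in the WT H3K27ac covered 83.4% and H3K4me1 28.1% of it. The Ugt1a domain (75.6 kb) touched 12 protein-coding genes, the most of any domain, and its log2 ChIP over input was 0.49 to 0.66 in the WT lists. WT input reads per kb were 94.8 at Prl2c3, 64.6 at Gm49692, 66.5 at Zfp982, 71.5 at Platr16 and 114.0 at Zfp992 with Zfp981. These belong to the 34 domains with high input, and the part of the input in their width was not tested.

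The H3K9me3 libraries held 8048837 to 11248081 ChIP reads in calls on the autosomes, and calls covered 190.3 ± 3.00 Mb in the WT and 170.2 ± 6.39 Mb for the KO (SD, n = 3 each, no overlap). For the cell type, 6 of 10 stem-cell markers had an H3K4me3 peak at the promoter in all 6 libraries, including Pou5f1, Sox2, Zfp42 and Klf4, while Nanog had one in 4, Sall4 in 3, Dppa5a in 1 and Esrrb in 0. Of these 10, Esrrb had an H3K27me3 call in all 6 libraries and Klf4 in 2. Of 8 markers of other cell types, Thy1, Cdx2 and T had an H3K4me3 peak in all 6 and Pax6 in 5, and all 8 had an H3K27me3 call in all 6 libraries. No marker promoter lay in a domain.

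Where a domain was called, the read densities of the genotypes overlapped. ChIP reads per kb of call in the domains were 86.3, 74.5 and 74.7 in WT replicates 1 to 3 and 90.3, 70.0 and 73.5 in KO replicates 1 to 3. The groups overlapped, at 78.5 ± 6.79 and 78.0 ± 10.9 (SD, n = 3 each), and each genotype's highest value was that of replicate 1. The share of all ChIP reads that fell in these calls was 19.1 ± 0.246% in the WT and 19.2 ± 0.453% in the KO. On the log2 scale, ChIP over input in the domains' calls was 1.98 ± 0.061 in the WT and 1.88 ± 0.116 in the KO, with overlap, against 1.65 ± 0.063 and 1.55 ± 0.105 in all other calls. Over single domains, the median of reads per kb was 76.9, 66.1 and 66.8 in the WT and 80.3, 62.2 and 65.3 in the KO, and from the 10th to the 90th percentile it ran from 54.9 to 112.8 in WT replicate 1. Because cells were pooled in each library, fewer cells with a mark and less mark per cell or per allele cannot be told apart in any value given here.

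The KO lists covered less of the domains. Cover was 96.6, 98.0 and 96.6% of domain bases in the WT, where the calls chose the domains, and 88.0, 87.6 and 89.0% in the KO. To take the measured list out of the choice, the domains were drawn again from 2 WT lists at a time and measured in the WT list left out. This gave 97.2 ± 0.823% in the left-out WT list and 92.0 ± 0.510% in the KO (SD, n = 3 each). Each KO value (91.8, 91.7 and 92.6%) lay below every left-out WT value, and the difference was −5.13 percentage points. The same was done from the KO side, with pieces of 15 kb or more in 2 KO lists, and there the left-out KO list covered 96.6 ± 0.877% and the WT lists 96.8 ± 0.452%, with overlap and a difference of 0.207 points. The left-out lists share libraries among the 3 draws, so no p is given. A left-out list was also called against the same input as the lists that chose, and the other genotype's lists against another. The part of the input in the choice is therefore not set aside.

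By width, the held-out difference was −3.73 points in domains of 30 kb or more, −5.97 from 20 to 30 kb and −5.21 from 15 to 20 kb. It was −5.12 in pieces of 10 to 15 kb, −5.58 from 5 to 10 kb and −9.12 from 2 to 5 kb. The domains thus stood near the pieces of 5 to 15 kb in this measure, and over these classes cover rose with width in both genotypes.

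**Figure D2:**
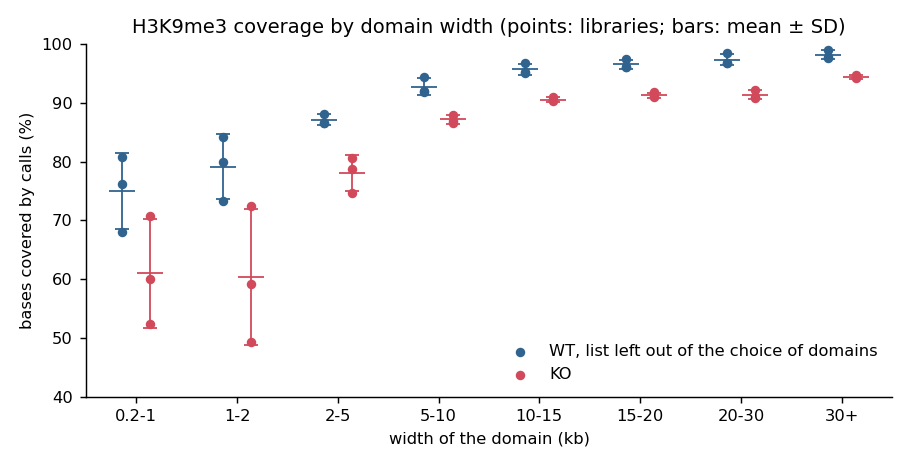
Percent of bases covered by H3K9me3 calls (y axis, from 40%) against the width of the piece in kb (x axis), for WT lists left out of the choice of domains (blue) and KO lists (red), with points for libraries and bars for the mean ± SD of 3. From 1 kb upwards cover rose with width, and every KO point lay below every WT point of its width class.

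Most domains stayed called in the KO, and lower cover was mostly partial. On average over the KO lists, 590 domains were covered by at least 90%, 470 by 50 to 90% and 21 by under 50%, with a median of 91.0%, and 1066 were called in all 6 lists. The WT calls chose these domains, so the counts describe the KO and do not measure a loss. Among domains drawn without the measured WT list, a measure added after the data were seen, those covered by at least 90% were 89.6, 95.4 and 90.3% in the left-out WT lists and 71.6, 71.6 and 75.9% in the KO lists. Those covered by under 50% were 0.128, 0 and 0% in the WT and 1.92, 2.05 and 1.87% in the KO, and the genotypes did not overlap in either share. In the KO consensus 716 domains were 1 piece, 356 were 2 or more pieces, up to 6, and 9 had none. Each domain is 1 piece of the WT consensus by the rule, while single WT lists held 440, 596 and 452 domains whole in 1 call. In the domains drawn without the measured list, 19.4, 13.4 and 21.4% lay in 2 or more calls in the left-out WT lists and 29.1, 30.1 and 27.1% in the KO lists, with no overlap. The Scgb2b21 domain (chromosome 7, 33514801 to 33603800) was in 6 pieces, and its cover went from 98.2, 96 and 97.3% in the WT lists to 65.2, 77.1 and 72.4% in the KO lists, while the log2 fold change of its reads per kb of call was 0.05 and did not pass edgeR's test.

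The 6 domains that no KO list called all touched an imprinted gene. They were at Mest (chromosome 6, 30728601 to 30745000), Peg3 and Usp29 (chromosome 7, 6721001 to 6737800), Nap1l5 in an intron of Herc3 (chromosome 6, 58897001 to 58919600), Airn and Igf2r (chromosome 17, 12732601 to 12749800), Gnas and Nespas (chromosome 2, 174288401 to 174304600), and Meg3 (chromosome 12, 109520601 to 109547000). The WT lists covered them by 91.7 to 100.0%, and the KO lists by 0% in all 18 values. A call is a threshold on reads, so 0% says that no region passed the authors' FDR limit there and not that reads were absent, and the lists give no reads outside calls.

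Among the genes that are expressed from the paternal chromosome, Mest encodes a protein of the hydrolase fold, Peg3 a zinc-finger protein, Usp29 a ubiquitin protease and Nap1l5 a relative of nucleosome assembly proteins. Airn is a long RNA transcribed antisense to Igf2r, whose product clears the growth factor IGF2, and Nespas is antisense at Gnas, which encodes a stimulatory G protein subunit. Meg3 is a long noncoding RNA expressed from the maternal chromosome. The Meg3 domain lies in a stretch of chromosome 12 where KO input reads were lower in other domains, and the part of this in its lost call was not tested.

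The remaining imprinted domains ranged from nearly lost to raised. At Zrsr1 in an intron of Commd1 (chromosome 11, 22964801 to 22980200), the WT lists covered 100.0, 100.0 and 89.6% and the KO lists 18.2, 0 and 15.6%. At Grb10 (chromosome 11, 12013601 to 12035800), which encodes an adaptor of the insulin receptor, cover was 98.2, 100.0 and 100.0% in the WT and 27.9, 23.4 and 27.9% in the KO. At Peg13 in Trappc9 (chromosome 15, 72801001 to 72816400) it was 94.8, 93.5 and 100.0% in the WT and 67.5, 49.4 and 53.2% in the KO. In these 3 domains every KO value lay below every WT value. Slc22a2, which encodes an organic cation transporter, kept 79.8% on average, Ppp1r9a, which encodes the actin-binding neurabin, 96.9%, and Kcnq1, a potassium channel gene that contains the antisense Kcnq1ot1, 99.1% after 93.0% in the WT. Over the 12 imprinted domains the median cover was 97.3% in the WT and 5.63% in the KO, and 8 of them were under 50%, against medians of 97.4% and 91.0% and 21 under 50% over all 1081.

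**Figure D3:**
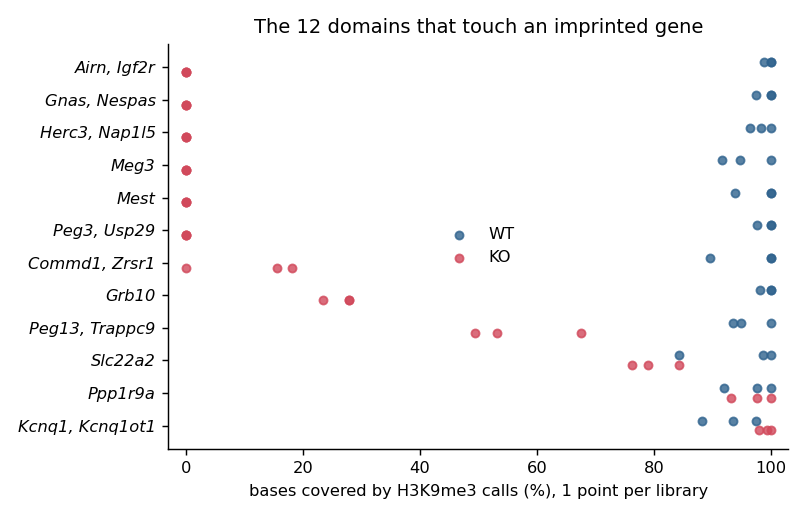
Percent of bases covered by H3K9me3 calls (x axis) in each of the 12 domains that touch an imprinted gene (rows), with 1 point per WT (blue) or KO (red) library, points of equal value lying on each other. In 6 domains all KO points are at 0%, and at Kcnq1 and Ppp1r9a the KO points lie among or above the WT points.

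The other 13 domains under 50% in the KO touched C130026I21Rik on chromosome 1 (in 2 domains), Tmem161b, Washc2, Dnah8, Gm31698, B3glct, Serpina1c, Zfp386 and Zfp81, or no gene in 3. They are named because they complete the count, which was not a rule set for naming. Some were called unevenly, as at Dnah8, covered by 46.8, 0 and 0% in the KO, and at Gm31698, covered by 87.9, 0 and 0%, where the log2 ChIP over input was 0.49 or less in every list that called them. Among the 46 domains with a zinc-finger gene the median KO cover was 92.5%, and 2 were under 50%.

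Read density was then compared over all regions called in all 6 H3K9me3 lists, with edgeR's quasi-likelihood test on ChIP counts and the covered length of each library as an offset. Of 27342 regions, 46 were higher (0.168%) and 74 lower (0.271%) in the KO at a Benjamini-Hochberg adjusted p under 0.05. The 1069 domains in tested regions lay in 1038 regions, of which 10 were higher (0.963%) and 19 lower (1.83%), and these held 10 and 22 domains. Values given for a domain are those of its region, which can reach past the domain. At Tbl1xr1 the region ran from 22078401 to 22137200 and the domain from 22100401 to 22121200. At Grb10 the region began at 12002001 and the domain at 12013601. Regions with domains had a median of 1418 reads and a median SE of 0.071 on the log2 scale, against 190 reads and 0.157 in the other regions, so that smaller differences could pass there. The median log2 fold change was −0.0036 over domain regions and 0.0016 over all. In all 29 called domain regions the 3 WT and 3 KO values did not overlap, and the same held in all 120 called regions, so this does not set the domains apart. WT reads also shaped the widths that chose the domains, so these counts are a description of the domains, and 12 domains, among them 7 at imprinted genes, could not be tested because a KO list had no call.

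**Figure D4:**
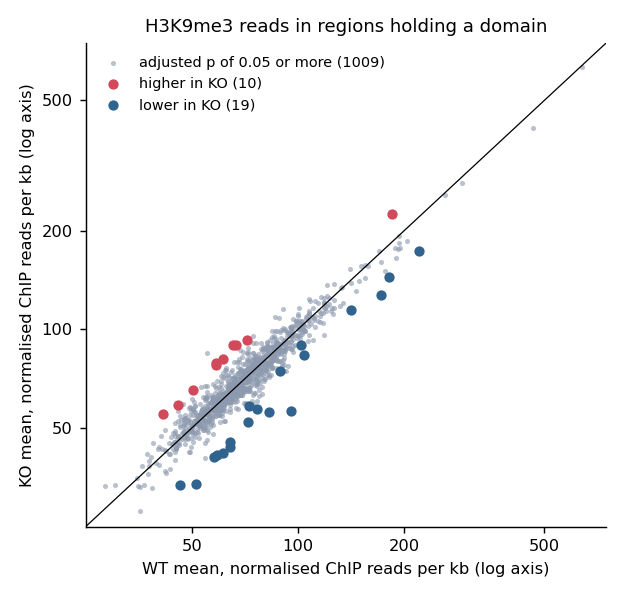
Mean normalised H3K9me3 ChIP reads per kb of call in the KO (y axis) against the WT (x axis), both on log axes, for the 1038 tested regions that hold a domain, with the line of equal values. The 10 regions higher in the KO (red) and the 19 lower (blue) are drawn over the other 1009 (grey), some of which lie further from the line than called ones.

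The lowest adjusted p among the domains was at the widest. At Prl2c3, normalised reads per kb were 212.5, 227.3 and 220.4 in the WT and 169.6, 177.8 and 174.3 in the KO, with every KO value below every WT value. The log2 fold change was −0.34 ± 0.027 (SE, edgeR adjusted p = 8.2e-05), while the domain stayed covered by 98.3% in the KO. The domain is 1 of the 34 with high input, at 94.8 WT input reads per kb. The input's log2 KO over WT was −0.10 there, and log2 ChIP over input fell from a range of 1.55 to 1.67 in the WT lists to one of 1.25 to 1.41 in the KO lists. The other 11 of the 12 widest did not pass the test, with log2 fold changes from −0.10 at Gm49692 to 0.12 at Platr16.

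The domain with the largest fall was that of Peg13 and Trappc9. Its normalised reads per kb were 92.5, 102.4 and 92.6 in the WT and 49.5, 61.1 and 58.2 in the KO, a log2 fold change of −0.78 ± 0.092 (SE, edgeR adjusted p = 0.00232). At Grb10 they were 45.3, 46.8 and 47.1 in the WT and 31.4, 38.5 and 30.5 in the KO, a log2 fold change of −0.49 ± 0.093 (SE, edgeR adjusted p = 0.0393). At Kcnq1 the density rose, from 58.7, 59.0 and 58.4 in the WT to 79.6, 78.3 and 76.6 in the KO, with a log2 fold change of 0.41 ± 0.054 (SE, edgeR adjusted p = 0.00481). The 3 domains thus moved in different directions, with no overlap between genotypes in any of them, as in all 120 called regions. No RefSeq promoter of Kcnq1 or Kcnq1ot1 lay wholly inside the Kcnq1 domain. Slc22a2 and Ppp1r9a, the other imprinted domains that could be tested, had log2 fold changes of −0.05 and 0.15 and did not pass.

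Zinc-finger genes were found among falls and rises. Zfp386 on chromosome 12 fell by 0.62 and Zfp110 on chromosome 7 fell by 0.51 on the log2 scale (edgeR adjusted p = 0.0215 and 0.0354). A region that held Zfp990 with 4 domains fell by 0.19 (edgeR adjusted p = 0.0246). Zfp951 on chromosome 5 rose by 0.37 (edgeR adjusted p = 0.0362), from 49.8, 53.2 and 48.4 normalised reads per kb in the WT to 66.8, 62.8 and 66.1 in the KO. Zfp600 on chromosome 4 rose by 0.28 (edgeR adjusted p = 0.0148). WT input was high at both chromosome 4 regions, at 45.7 to 71.6 reads per kb in the 4 domains with Zfp990 and 79.6 at Zfp600. The median over all domains was 20.5, and the part of the input in these 2 calls was not tested. Zfp990, Zfp600 and the chromosome 8 domain from 50972401, whose input is given with the other rises of that chromosome, were named after their values were seen. The 43 tested regions with a zinc-finger domain had a median log2 fold change of −0.0030, and 22 were below 0.

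Further falls outside the lists of imprinted and zinc-finger symbols included BC024063 on chromosome 10, which fell by 0.50 (edgeR adjusted p = 0.0249). Its normalised reads per kb went from 61.7, 67.5 and 62.9 in the WT to 42.3, 51.2 and 42.2 in the KO, with an unmoved input (log2 0.0045). Whether genes outside the list encode zinc fingers was not looked at. Rises included Tbl1xr1, a subunit gene of a nuclear receptor co-repressor (0.41), Pcmtd1 (0.38), and domains without a gene on chromosome 9 from 19960601 (0.45) and on chromosome 16 from 9257401 (0.43). The chromosome 9 domain had a denser call over less of its length, with KO cover of 63.8, 55.2 and 56.0%. Its input was also higher in the KO (log2 KO over WT 0.42), and its log2 ChIP over input differed by −0.0006 (KO minus WT).

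Input reads moved with several of these calls. Of the 19 lower regions, 5 lay between 103878001 and 119785200 on chromosome 12, at Serpina1c, Zfp386 and the domains from 103959001, 115612401 and 119769001, and there the input's log2 KO over WT ran from −1.15 to −0.46. At 4 of these 5 log2 ChIP over input was higher in the KO, by 0.17 to 0.61. The 3 rises on chromosome 8, at Ccdc7b and the domains from 50972401 and 129194001, had an input log2 KO over WT of 0.40 to 0.67, and their log2 ChIP over input differed by −0.34 to −0.01 (KO minus WT). Over all domains ChIP over input moved the way of the call in 15 of 19 lower and 6 of 10 higher regions. However, mean log2 ChIP over input (KO minus WT) was −0.095 in the domains' calls and −0.102 in other calls, with overlap. That shift favours agreement with a lower call, and no share over all regions is given, so the counts say little about these calls. The part of the input in these calls was not tested. Without chromosomes 2, 8 and 12, 7 higher and 12 lower domain regions were called, and leaving out each of the 6 libraries in turn gave 2 to 6 higher and 5 to 18 lower, the most lower ones without KO replicate 2 and 5 to 8 without any other. Prl2c3, Kcnq1 and Trappc9 passed in every alternative in which they could be fitted, and the other named rises and falls lost the call in 1 to 7 alternatives each.

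The other 4 marks covered less of the domains than of the autosomes, to differing degrees. In the WT, H3K27ac covered 11.0% of domain bases against 15.5% of the autosomes, H3K4me1 6.01 against 19.6%, H3K27me3 1.35 against 9.84% and H3K4me3 0.106 against 0.724%. In the WT consensus of each mark, 713 of 1081 domains (66%) held none of H3K4me3, H3K27me3, H3K27ac and H3K4me1. H3K27ac, found at active promoters and enhancers, was in 330 domains, H3K4me1, found at enhancers, in 238, H3K27me3, the Polycomb mark, in 40 and H3K4me3, found at active promoters, in 39. H3K4me1 covered at least 50% of the domain in 39 and H3K27me3 in 9, and H3K27ac did so in more domains than either. H3K27ac and H3K4me1 were together in 219 domains. The labels give one and the same antibody code for these marks, whereas the study's methods give H3K27ac another, so the overlap is printed as called. In the WT, H3K27me3 covered 100.0% of the domains of Grb10 and Gm31698, and H3K27ac 100.0% at Arl15 and chromosome 16 from 9257401. H3K4me1 covered 100.0% at Hunk and Dnah8, and H3K4me3 covered most at Gnas and Zrsr1 (19.2 and 10.6%). Those at 100.0% are the first of ties and not the only ones. Tbl1xr1 for example was also at 100.0% for H3K27ac and H3K4me1, and Mcm5 for H3K4me1.

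In the domains H3K4me3 and H3K27me3 were higher and H3K27ac and H3K4me1 lower in the KO, and the libraries of the 2 genotypes did not overlap for any of them. H3K4me3 covered 0.111, 0.0949 and 0.113% of domain bases in the WT and 0.153, 0.182 and 0.199% in the KO. H3K27me3 covered 1.26, 1.34 and 1.46% in the WT and 1.62, 1.73 and 1.66% in the KO. H3K27ac covered 10.6, 11.1 and 11.3% in the WT and 10.0, 10.2 and 9.78% in the KO. For H3K4me1 the values went from 6.01, 6.06 and 5.96% to 5.63, 5.71 and 5.58%. With 3 against 3 libraries an exact two-sided permutation test cannot give a p below 0.1, so none is given.

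The differences were not all particular to the domains. Over the autosomes H3K27me3 was also higher in the KO, at 9.84 ± 1.04 and 11.1 ± 0.256%, and H3K4me1 also lower, at 19.6 ± 0.046 and 19.3 ± 0.151% (SD, n = 3 each, no overlap), while H3K4me3 went from 0.724 ± 0.042 to 0.830 ± 0.064%, with overlap. H3K27ac was lower in the domains of the KO and higher over the autosomes as a whole. Over chromosomes 1 to 19 its cover was 15.5 ± 0.270% in the WT and 16.7 ± 0.176% for the KO (SD, n = 3 each, no overlap), and in the narrower pieces 15.5 ± 0.373% and 15.8 ± 0.125%, with overlap. In the domains it was 11.0 ± 0.319% and 9.99 ± 0.204%, and the number of domains with a call went from 322, 340 and 332 to 287, 283 and 268. H3K4me3 and H3K27me3 were also higher in the narrower pieces of the KO, going from 0.247 ± 0.0099 to 0.342 ± 0.031% and from 3.30 ± 0.392 to 4.12 ± 0.152%. Without the 12 imprinted domains the H3K4me3 difference in the domains was 0.035 instead of 0.072 percentage points, and in domains of 20 kb or more the H3K27me3 difference was 0.17 instead of 0.32 points.

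**Figure D5:**
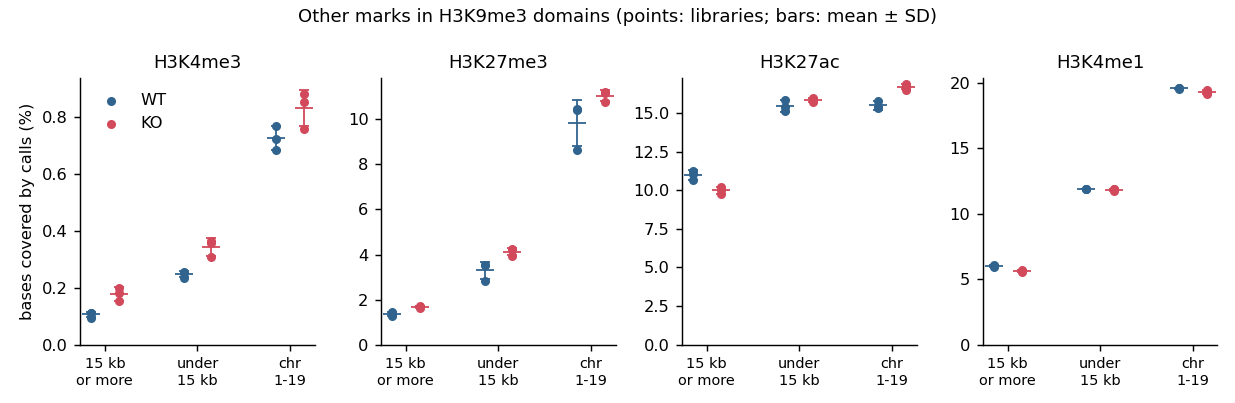
Percent of bases covered by calls of the other 4 marks (y axis, a scale for each mark) in the domains of 15 kb or more, in the narrower pieces and over chromosomes 1 to 19, with points for WT (blue) and KO (red) libraries and bars for the mean ± SD of 3. In the domains H3K27ac went from 11.0 to 9.99%, and over the autosomes from 15.5 to 16.7%.

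Regions called in all 3 libraries of one genotype and in none of the other were counted in the merged regions of each mark that touched a domain. For H3K27ac, 43 of 596 (7.21%) were restricted to the WT and 8 (1.34%) to the KO, against 3.59% and 1.34% over all its merged regions. For H3K4me1, 17 of 439 (3.87%) were restricted to the WT and 8 (1.82%) to the KO, against 2.11% and 1.48%. For H3K4me3, 0 of 113 were restricted to the WT and 8 (7.08%) to the KO, against 0.735% and 3.14%. For H3K27me3, 0 of 124 were restricted to the WT and 6 (4.84%) to the KO, against 1.33% and 1.81%. The counts for H3K4me3 and H3K27me3 are small, and leaving out a library gave 8 to 13 and 7 to 10 KO-restricted regions.

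WT-restricted and KO-restricted calls were in different domains except at Hs2st1, where H3K4me1 had both. The 53 domains with a WT-restricted call included 0 at imprinted genes and 39 without a protein-coding gene, and their median KO cover by H3K9me3 was 91.7%. Of all 1081 domains, 12 were at imprinted genes and 789 without a protein-coding gene, and the median KO cover was 91.0%. The WT-restricted domains thus stood near all domains in these values. The 21 with a KO-restricted call included 6 at imprinted genes. At Mest H3K4me3, H3K27ac and H3K4me1 each had a KO-restricted call, and in the consensus of each genotype H3K4me3 went from 0 to 14.1% of the domain, H3K27me3 from 0 to 62.2%, H3K27ac from 0 to 78.0% and H3K4me1 from 0 to 100.0%. At Peg13 and Trappc9 H3K27me3 went from 0 to 40.3%, H3K27ac from 0 to 11.7% and H3K4me1 from 0 to 55.8%. At Gnas H3K4me3 went from 19.2 to 40.6%, and at Nap1l5 H3K27me3 from 0 to 23.9%. At Meg3, where the H3K9me3 call was also lost, the other marks differed less, with H3K27ac at 85.6 and 90.9% and H3K4me1 at 93.9% in both.

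Some domains outside the imprinted genes also held KO-restricted calls, and 2 of them are given here after their values were seen. At Tmem161b (chromosome 13, 84226801 to 84249800), H3K9me3 cover was 94.8, 100.0 and 100.0% in the WT and 9.57, 0 and 22.6% in the KO, H3K27ac went from 0 to 24.3% and H3K4me1 from 20.9 to 100.0%. At 27286401 to 27351200 on chromosome 17 (64.8 kb, Gm49793 and Gm10505), H3K27me3 covered 92.0% in the WT and 92.6% in the KO and H3K27ac went from 0 to 87.7%. There H3K9me3 covered 98.1% in the WT and 91.0% in the KO, and its log2 fold change of −0.25 did not pass (edgeR adjusted p = 0.0881).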

How the data were processed

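ChIP-seq of 5 histone marks in 3 WT and 3 KO mESC clones was used, as deposited lists of called regions. For H3K9me3, H3K27me3, H3K27ac and H3K4me1 the authors deposited, for each library, regions with raw counts of ChIP and input reads, a score, a p-value with its FDR, and the ChIP enrichment over input as a log2 value, in the columns that epic2 writes. For H3K4me3 they deposited MACS2 narrow peaks with a score, a fold enrichment (ratio) and −log10 p- and q-values, of which only positions entered here. The submitters' processing notes name Trim Galore 0.6.6, Bowtie2 2.4.4, SAMtools 1.15, deepTools 3.5.1, SICER 0.0.52 and MACS2 2.2.7.1. The study's methods do not name the H3K9me3 libraries. They state that duplicates were marked in all cases, but not whether marked reads were dropped before calling. Calls were made per library against 1 input per genotype, so calls stop at a threshold that moves with depth, and reads outside calls are not in the lists. ChIP reads in H3K9me3 calls on the autosomes were 8048837 to 11248081 per library, and intervals of counting error are not given because the spread between clones is used.

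The consensus, its width limit and its members follow the opening of the report, with positions 1-based on GRCm38 and genes of GENCODE M21. The members and gene lists were chosen with earlier results of these data known. H3K9me3 calls of all 6 libraries that overlapped were merged (61378 regions), and the 27342 called in all 6 were tested with edgeR 4.0.16 (quasi-likelihood, TMM, covered length as offset, two-sided, Benjamini-Hochberg over all) in R 4.3.3. The SE is approximate, from the fold change (log2) and its F value. Normalised reads per kb are the merged region's counts per covered kb, scaled to the mean effective library size. Groups came from the labels, and the study names the replicates as clones. The script was tested on simulated counts. Named were the 12 widest domains, up to 8 rises and 8 falls called without overlap, and the 5 least covered in the KO. For each other mark 2 of the most covered were named, with ties taken in order of chromosome label and position. Those at the limit and domains with most genes of a list were named too. The authors' own log2 values were read only to check that each library's ChIP over input was scaled by 1 constant. Alternatives are listed with their effects at the end, and DESeq2 1.42.0 was 1 of them. Python 3.11.15 was used for the rest.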

Additional observations from a re-analysis of the deposited data

Results flagged for a closer look

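Chromosomes X and Y lie outside the rule, which takes chromosomes 1 to 19, and no comparison above used them, yet they held WT consensus pieces of the same width. Chromosome X had 53 pieces of 15 kb or more, covered by 97.6, 97.8 and 95.8% in the WT lists and by 88.4, 85.9 and 86.5% in the KO lists. Chromosome Y had 14, covered by 97.9, 94.7 and 96% in the WT lists and by 83.6, 76.3 and 80.0% in the KO lists. WT calls chose these pieces, so the WT values are a description, and no list of called regions of an input library was used here to set them against.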

How the results depend on the processing

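Calls, not reads, limit these results, since a domain under the threshold in 1 library has no count there. The number of domains was 646 with bases in 3 of 3 WT lists, 2905 from 10 kb and 497 from 20 kb, and 726 to 1081 when a library was left out. Mean KO cover of 88.2% became 93.7% (3 of 3), 84.9% (pieces up to 1000 bp apart joined), 86.9% (10 kb), 89.1% (20 kb) and 87.8 to 92.6% without a library. The held-out difference of −5.13 points became −6.19 with joined pieces, −4.88 without chromosomes 2, 8 and 12 and −6.59 to −4.94 without a library, and it was not formed with 3 of 3 lists or without imprinted, high-input or shared-sequence domains. The H3K4me3 difference of 0.072 points was 0.035 without imprinted domains, and that of H3K27me3 was 0.169 from 20 kb. The H3K4me1 difference of −0.371 was −0.527 from 20 kb, −0.506 with equal numbers of top-ranked calls, −0.515 without chromosomes 2, 8 and 12, −0.523 without imprinted domains, and −0.470 to −0.341 without a library. Alternatives without imprinted, high-input or shared-sequence domains, and restricted calls without a library, were chosen after seeing the data. Restricted calls touching domains were then 0 to 2 (WT) and 8 to 13 (KO) for H3K4me3 and 0 to 1 and 7 to 10 for H3K27me3, and the direction of each difference in cover held in all alternatives run.

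In edgeR's test all regions gave 46 higher and 74 lower in the KO (2771 at an unadjusted p under 0.05). Regions of like length without the length offset gave 218 and 233, of which 54 and 91 held domains, DESeq2 gave 115 and 158 (9542 adjusted p-values were NA), and leaving out chromosomes 2, 8 and 12 gave 28 and 48, with 12 lower domain regions. Without a library the counts were 11 to 37 and 21 to 62, and 2 to 6 and 5 to 18 for domain regions. With the replicate block, 34 and 56 regions were called, 9 and 16 of them with domains, and Zfp951, Zfp110, Grb10, the chromosome 12 domain from 119769001 and the chromosome 8 domain from 50972401 lost the call. Deviations of same-numbered WT and KO libraries from their genotype means correlated by 0.0083, 0.0022 and 0.0045. These values show no pairing of normalised densities by replicate number. They cannot exclude an effect on whole libraries, which the normalisation removes. Of the wide domains that were not called 6 changed sign, with reversed values under their SE. Without a library D10Wsu102e ranged from −0.0126 to 0.04997, Scgb2b21 from −0.0196 to 0.0823, Zfp982 from −6.222e-05 to 0.0361, the Ugt1a cluster from −0.0422 to 0.0079, Zfp992 with Zfp981 from −0.0425 to 0.0035 and 2210408I21Rik from −0.0576 to 0.0205, and Zfp992 with Zfp981 was at 0.0189 in regions of like length. The cause of these changes was not tested.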

Other observations

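Drawn from the KO lists in the same way, the consensus held 824 pieces of 15 kb or more over 18.3 Mb, with a median width of 18.8 kb, and 710 of them touched a WT domain. Of their bases 95.5% were in the WT consensus. In the KO consensus 2 such pieces had no WT consensus at all, at Tns3, which encodes the focal adhesion protein tensin 3 (chromosome 11, 8567601 to 8582800), and at Urb2 with Gm20388 (chromosome 8, 124023601 to 124045800). At Tns3 the WT lists covered 0, 19.7 and 0% and the KO lists 71.1, 100.0 and 100.0%. At Urb2 the WT lists covered 0, 18.9 and 0% and the KO lists 100.0, 15.3 and 100.0%, so that the KO libraries differed among themselves. A piece of 42.2 kb at Il34, Sf3b3 and Cog4 (chromosome 8, 110805801 to 110848000) was covered by 13.7, 18.5 and 0% in the WT and by 100.0, 92.9 and 98.6% in the KO. The KO lists chose these pieces, so the values are a description, and the part of the raised KO input on chromosome 8 (median log2 KO over WT of 0.24 over its WT domains) was not tested.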
